A study of Mus musculus with 11 samples.

Results

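Among 9 microarrays of sorted mouse bone marrow progenitors, 4 arrays with a high beta-globin signal were set against 5 arrays with a low one, and all other genes were described. The arrays were chosen by the signal of 1 transcript cluster, the array's unit for 1 gene or transcript, which the files name Hbb-b1 and which had the highest mean of the 2 clusters of that name. Arrays at 8.5 or more on the log2 scale formed the high-globin set and the others the low-globin set, so 9 of the 11 arrays of the series were used. The remaining 2 arrays, 1 of each genotype, were normalized apart and serve only as values beside the rest.

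The study measured total RNA of LSK cells, a marrow fraction that lacks lineage markers, carries Sca-1 and Kit, and holds stem cells and early progenitors, from mice with a Klf5 deletion and from wild-type mice. Both genotypes are of strain C57BL/6, and the sample descriptions name Mx1-Cre (written MxlCre), a Cre recombinase under an interferon-inducible promoter, in both. Low-density marrow cells were separated on Histopaque, stained and sorted by flow cytometry, and their RNA was read on Affymetrix Mouse Gene 1.0 ST arrays. Ages, the number of animals per array, the treatment that induced Cre and whether arrays stand for separate animals are not given in the sources used here. Arrays are named KO for knockout and WT for wild type, with the replicate number of the label. The high-globin set holds KO2, KO5, WT2 and WT6, and the low-globin set holds KO3, KO4, WT3, WT4 and WT5.

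Globin RNA is made in large amounts by maturing red cells, while LSK cells stand before the choice between the erythroid, myeloid and lymphoid lines. Within LSK cells, a part with high Flt3 is known to begin the lymphoid programme, in which Dntt is an early gene and Vpreb1, a piece of the surrogate light chain, belongs to the pre-B cell receptor. Car1, Klf1 and Gata1 belong to early erythroid progenitors, and Elane, Mpo and Ms4a3 to granulocyte progenitors. Interferon-stimulated genes and NF-kappaB target genes are programmes that many blood cells share.

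The cluster that chose the sets, whose accession RefSeq now lists as Hbb-bt, had log2 signals of 9.25 in KO2, 10.59 in KO5, 9.91 in WT2 and 10.68 in WT6. In the low-globin arrays it was at 7.10 in KO3, 7.08 in KO4, 6.39 in WT3, 7.22 in WT4 and 7.43 in WT5. KO2 at 9.25 was the array nearest the threshold in the high-globin set and WT5 at 7.43 the nearest in the low-globin set, and no array lay between them. All 5 beta-globin clusters were left out of every count. Because these arrays also chose the sets, no test was made, and a difference is the genotype-adjusted log2 signal of the high-globin set minus that of the low-globin set.

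Sex-linked signals differed between the arrays and moved with the sets. Xist, the RNA of the inactive X chromosome, was at 9.59 in KO2, 10.59 in KO5, 4.88 in WT2 and 10.49 in WT6, and the mean of 4 Y-linked genes in the same arrays was 7.73, 7.09, 8.04 and 7.09. In KO3, KO4 and WT5 Xist lay between 11.05 and 11.12 and the Y-linked mean between 4.12 and 4.42. In WT3 and WT4 Xist was at 4.74 and 5.47 and the Y-linked mean at 7.90 and 8.04. Thus 3 of the 4 high-globin arrays carried both signals and 0 of the 5 low-globin arrays did, and their part in the results was not tested. Within the 3 wild-type arrays that carried the Y-linked signal without Xist, WT2 against WT3 and WT4, the differences are given below for the genes that lead the lists.

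**Figure D1:**
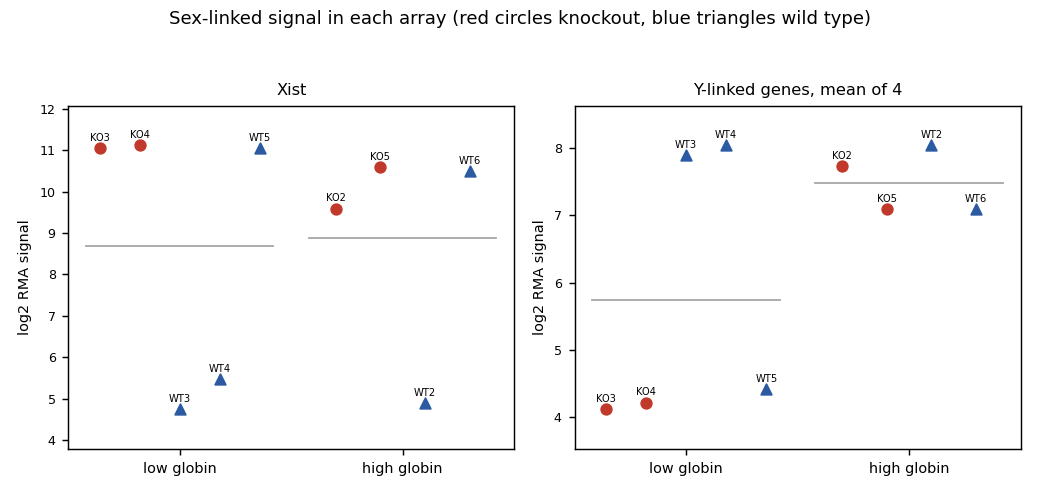
Each point is 1 array, with log2 RMA signal on the vertical axes, of Xist on the left and of the mean of 4 Y-linked genes on the right, and grey bars are set means. KO2, KO5 and WT6 are high in both panels, and each low-globin array is high in only 1 of them.

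Medians of the negative controls lay between 5.27 (KO2) and 5.62 (KO3), and medians of all transcript clusters between 5.93 (KO3) and 6.03 (WT5). The negative-control medians of KO2 and KO5 were 5.27 and 5.32, below those of KO3 and KO4, 5.62 and 5.58. WT2 and WT6 had 5.37 and 5.51, above WT3, WT4 and WT5 with 5.33, 5.33 and 5.29. The part of these medians in the results was not tested. The mean of 9 bacterial spike-in controls was 10.66 in KO5, a high-globin array, and 11.23 to 11.76 in the other 8, and its part in the results was not tested. Of 28939 transcript clusters, 12195 had a higher and 16744 a lower value in the high-globin set, with a median difference of -0.029. The larger differences leaned the other way. A difference of at least 2-fold without overlap between the sets was met by 103 clusters with higher values, 0.356% of all, and by 39 with lower values, 0.135%. After quantile normalization this split was 86 to 53, and in knockout arrays alone it turned to 156 higher and 183 lower. No overlap alone, at any size, was met by 904 with higher values, 3.12%, and 501 with lower values, 1.73%. These shares stand beside the counts below as background, since the same arrays chose the sets.

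Of the 103 clusters, 65 were named genes, 13 small RNAs, 17 predicted genes or clones, and 8 had no symbol. Of the 39, 16 were named genes and 8 small RNAs. Across all clusters the difference in knockout arrays and that in wild-type arrays had a Pearson correlation of 0.35 (n = 28939), given as a description, since the sets were chosen within both genotypes.

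**Figure D2:**
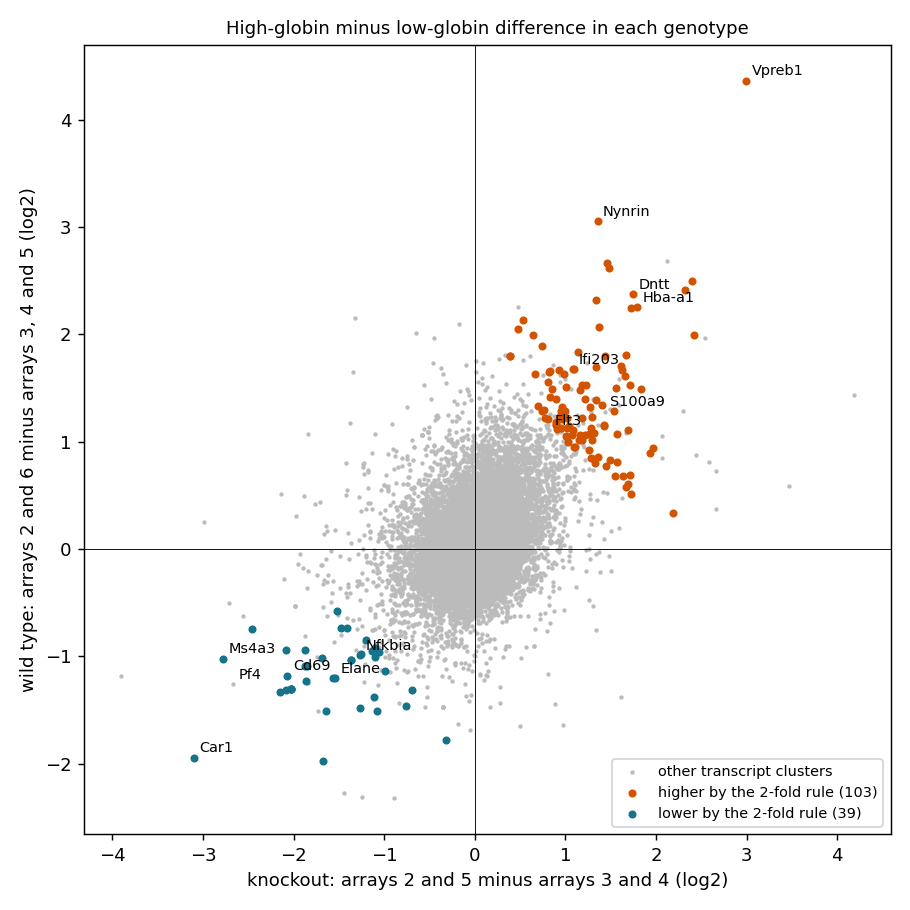
Each point is 1 transcript cluster, with the high-globin minus low-globin difference (log2) in knockout arrays on the horizontal axis and in wild-type arrays on the vertical axis. The 103 clusters counted as higher are orange and the 39 counted as lower are blue, with Vpreb1 at the upper right and Car1 at the lower left.

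Vpreb1 had the largest difference among the 103. Its log2 signal was 9.85 in KO2, 10.12 in KO5, 10.16 in WT2 and 11.62 in WT6, against 6.90 in KO3, 7.08 in KO4, 5.93 in WT3, 6.44 in WT4 and 7.21 in WT5. The sets lay far apart, with means of 10.44 ± 0.80 (SD, n = 4) and 6.71 ± 0.53 (SD, n = 5), and the difference of 3.74 corresponds to 13.4-fold. It was 3.00 in knockout, 4.37 in wild type and 3.97 within the wild-type arrays with Y-linked signal and no Xist. Dntt, the terminal transferase that adds bases to antigen receptor joints, was at 8.79, 8.85, 9.26 and 9.39 in KO2, KO5, WT2 and WT6, and at 6.78, 7.37, 6.94, 7.86 and 6.05 in KO3, KO4, WT3, WT4 and WT5. Its sets did not overlap either, and the difference was 2.09, with 1.86 within those 3 wild-type arrays.

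Several genes of early lymphoid progenitors had the same direction as Vpreb1, while Ms4a1 and Cd79a, markers of committed B cells, lay mostly below the negative controls. Of 24 multipotent and lymphoid-primed progenitor genes, 15 had higher and 9 lower values, with a median difference of 0.11. Flt3, the receptor that marks lymphoid-primed progenitors, lay between 9.25 and 9.51 in the high-globin set and between 7.83 and 8.90 in the low-globin set, a difference of 0.97. Satb1, a chromatin organiser of early lymphoid cells, had a difference of 0.91, Lsp1, an actin-binding leukocyte protein, 1.07, and Il1r1, the interleukin-1 receptor, 1.37. Hhex, a homeobox factor needed by early lymphoid progenitors, was at 9.34 ± 0.28 (SD, n = 4) against 8.01 ± 0.30 (SD, n = 5). None of these 5 genes overlapped between the sets.

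A list of 20 pre-B cell receptor and early lymphoid genes, put together after values were seen and therefore no independent evidence, had 19 members with higher values and a median difference of 0.67, against -0.029 over all clusters. Its sets did not overlap for 7 members with higher values and for 0 with lower values. The median was 0.22 in knockout, 0.91 in wild type and 0.42 without WT6. WT6 was the highest array of this list, with a mean of 7.41 against 6.78 to 7.02 in the other 3 high-globin arrays and 6.10 to 6.31 in the low-globin arrays. Igll1, the partner of Vpreb1 in the surrogate light chain, was at 7.42 in WT6, 6.17 to 6.65 in the other high-globin arrays and 5.73 to 6.17 in the low-globin arrays, so its sets met at 6.17. Rag1 and Rag2, which cut antigen receptor genes, were at 5.84 and 5.54 in WT2 and at 6.61 and 4.92 in WT6. In KO2 and KO5 they lay near the low-globin arrays, and most of their values were below the negative-control medians.

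Of 28 B cell markers, 21 had higher values, 3 did not overlap and the median difference was 0.17, or 0.07 without WT6 and 0.11 without KO3. The 3 were Vpreb1, Cd72, a B cell coreceptor, with 1.04, and Blnk, an adaptor of B cell receptor signalling, with 0.86, although 8 of 9 arrays had Blnk below their negative-control median. Ms4a1, which encodes CD20, was below the negative-control median in all 9 arrays and Cd79a in 8. The mean over the list ranged from 5.92 to 6.39 in the high-globin set and from 5.70 to 5.80 in the low-globin set. Plasma cell genes had 0 of 10 members without overlap, and T and NK cell markers 0 of 28. The T and NK list mean was 5.44 to 5.45 in the high-globin set and 5.46 to 5.56 in the low-globin set. This is the level of the negative-control medians, 5.27 to 5.62, and 10 of the 28 genes lay below these medians in all 9 arrays. In bulk RNA, more cells of a type and more RNA per cell cannot be told apart.

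**Figure D3:**
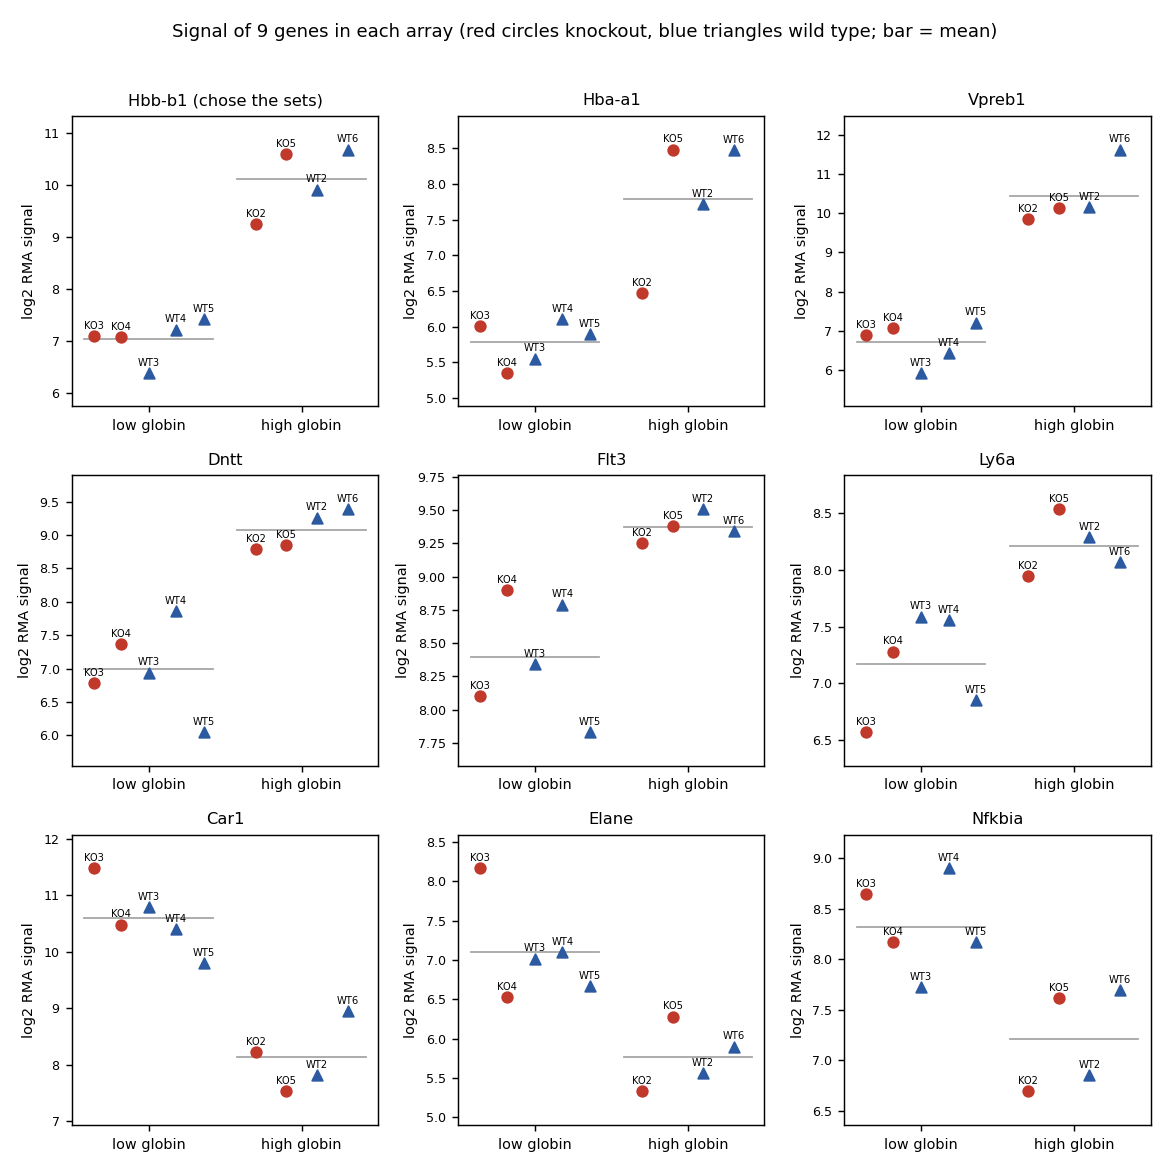
Each panel shows the log2 RMA signal of 1 gene in every array, with the low-globin set on the left, the high-globin set on the right, and a grey bar at each set's mean. The Hbb-b1 panel shows the signal that chose the sets, Vpreb1, Dntt, Flt3 and Ly6a are higher in each high-globin array than in any low-globin array, and Car1, Elane and Nfkbia are lower.

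Erythroid genes did not follow the beta-globin signal as a group. The alpha-globin genes did: Hba-a1 was at 6.47 in KO2, 8.48 in KO5, 7.72 in WT2 and 8.47 in WT6, against 6.01, 5.35, 5.55, 6.10 and 5.89 in KO3, KO4, WT3, WT4 and WT5. KO2 was the high-globin array nearest to the low-globin set. Hba-a2, a near-identical copy whose probes may read the same RNA, gave a difference of 2.01 beside 2.04 for Hba-a1.

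Of 48 measured erythroid genes outside the beta-globin locus, alpha-globin included, 18 had higher and 30 lower values, with a median difference of -0.08. The sets did not overlap for 3 with higher values (Hba-a1, Hba-a2 and Bpgm, at 0.26) and for 7 with lower values. Car1, carbonic anhydrase 1 of the early erythroid line, led the latter, with 8.23 in KO2, 7.53 in KO5, 7.82 in WT2 and 8.95 in WT6, against 11.48, 10.48, 10.79, 10.40 and 9.80 in KO3, KO4, WT3, WT4 and WT5. Its difference of -2.47 corresponds to 5.54-fold, and it was -3.10 in knockout, -1.95 in wild type and -2.77 within the wild-type arrays with Y-linked signal and no Xist.

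The erythroid transcription factors lay on the same side as Car1. Klf1 was at 5.67 to 6.00 in the high-globin set and 6.09 to 6.66 in the low-globin set, and Gata1 at 6.38 to 6.88 against 6.96 to 7.48. Blvrb, a biliverdin reductase, had a difference of -0.64 and Icam4, a red cell adhesion molecule, of -0.55. Alas2, the first enzyme of erythroid haem synthesis, differed by 0.14 and Slc4a1, the band 3 anion exchanger, by 0.03. Both belong to maturing red cells and overlapped between the sets, unlike the alpha-globin genes and Bpgm above. Ftl1, the ferritin light chain, was at 9.63 to 9.92 against 10.80 to 11.59, a difference of -1.37. Its other clusters gave -0.32 and -0.53, and the mouse genome holds near-identical ferritin copies.

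The neutrophil and granule genes were split between the sets. Over the 28 genes of this list, 14 had higher and 14 lower values, the median difference was -0.02, and the sets did not overlap for 1 with higher and 3 with lower values. Ms4a3, a membrane protein of granulocyte and monocyte progenitors, was at 5.56, 6.45, 5.88 and 6.48 in KO2, KO5, WT2 and WT6, against 9.36, 8.19, 6.73, 7.45 and 7.42 in KO3, KO4, WT3, WT4 and WT5. KO3 and KO4 stood highest, and the difference of -1.82 was -2.78 in knockout and -1.02 in wild type. Elane, neutrophil elastase, differed by -1.36 and Mpo, myeloperoxidase, by -0.79, both without overlap. Ctsg, cathepsin G, had -0.98 and Prtn3, proteinase 3, -0.62, with overlap. The opposite sign was found for Lyz2, lysozyme, with 7.47 to 8.25 against 6.19 to 7.13, and for S100a9, a calcium-binding protein of mature neutrophils, with a difference of 1.35 and overlap through KO3 at 8.03.

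KO3 had the highest mean of the neutrophil and granule list of all arrays, 6.51. Of 28 monocyte, macrophage and dendritic cell genes 22 had lower values, with a median of -0.14, or -0.09 after quantile normalization. Of the 28, 9 were below the negative-control median in all 9 arrays. The sets did not overlap for Ly6c2, a monocyte surface protein, at -0.72, and for Adgre1, a macrophage surface receptor, at -0.12, although Adgre1 was below the negative-control median in all 9 arrays. F13a1, a coagulation factor subunit made by monocytes and platelets, was at 8.25 in KO3 and differed by -0.97 with overlap.

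Mast cell, basophil and eosinophil genes leaned to the low-globin arrays, with 20 of 24 lower and a median of -0.16. Their list mean was 5.19 to 5.33 in the high-globin set and 5.34 to 5.68 in the low-globin set. This is the level of the negative-control medians, 5.27 to 5.62. Of the 24 genes, 10 lay below these medians in all 9 arrays, so the lean is measured in part at background. Mcpt8, a basophil protease, was at 6.68, 7.42, 6.50 and 6.67 in KO2, KO5, WT2 and WT6, and at 9.05, 8.52, 8.09, 7.84 and 6.85 in KO3, KO4, WT3, WT4 and WT5, so that only WT5 reached into the range of the high-globin set. Ms4a2, a chain of the IgE receptor, differed by -0.81 without overlap, with 4 of 9 arrays below their negative-control median.

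Of 22 megakaryocyte and platelet genes 6 had higher and 16 lower values, the sets did not overlap for 1 in each direction, and neither was past 2-fold. The median was -0.14, with -0.02 without KO2 and -0.22 without KO5. Pf4, the platelet chemokine, had the largest difference of the megakaryocyte list, -1.90, but its sets overlapped. It was at 6.79 in KO2, 8.95 in KO5, 8.12 in WT2 and 9.07 in WT6, and between 9.02 (WT5) and 10.72 (KO3) in the low-globin set. F2r, the thrombin receptor and the member without overlap on the lower side, was at 6.97 to 7.79 against 8.01 to 8.23.

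Genes of stem cells and multipotent progenitors had mostly higher values in the high-globin arrays. Of 30 stem cell genes 23 were higher, 6 did not overlap, all with higher values, and the median difference was 0.14, with 0.08 without KO5 or without WT5, 0.24 without KO2 and 0.07 after quantile normalization. The mean of this list overlapped, at 7.84 to 8.17 in the high-globin set and 7.68 to 7.93 in the low-globin set. Ly6a encodes Sca-1, an antigen of the sort itself. It was at 7.95 in KO2, 8.54 in KO5, 8.29 in WT2 and 8.07 in WT6, against 6.57, 7.28, 7.59, 7.56 and 6.85 in KO3, KO4, WT3, WT4 and WT5, a difference of 1.06. Kit, the other positive antigen of the sort, overlapped, with means of 10.16 ± 0.11 (SD, n = 4) and 10.12 ± 0.22 (SD, n = 5).

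Further stem cell genes without overlap were Lmo2, a haematopoietic transcription cofactor, with 0.49, Cd34, a surface antigen of progenitors, with 0.48, Procr, which encodes the endothelial protein C receptor, with 0.46, and Angpt1, the angiopoietin-1 gene, with 0.16. Mecom, a stem cell transcription factor, differed by 0.94, and its sets met where KO2, WT2 and WT4 stood, each at 7.50. In the multipotent and lymphoid-primed list, 15 of 24 had higher values and 6 did not overlap, namely Dntt, Il1r1, Lsp1, Flt3, Satb1 and Cd27. The mean of that list was 7.40 to 7.72 in the high-globin set and 7.15 to 7.33 in the low-globin set.

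**Figure D4:**
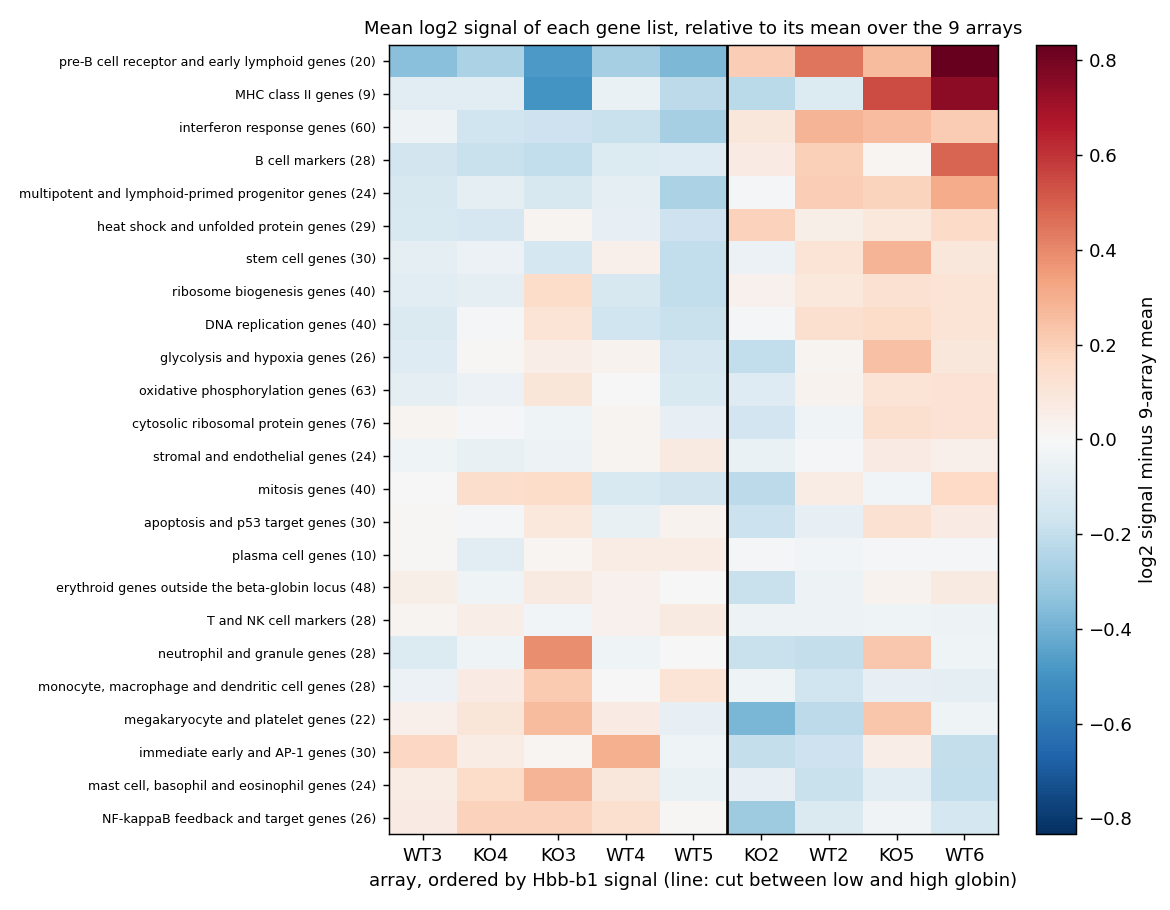
Colour shows the mean log2 signal of each gene list in each array minus that list's mean over the 9 arrays, with arrays ordered by their Hbb-b1 signal and the number of genes in parentheses. The early lymphoid and interferon lists are above their 9-array mean in each array to the right of the line and below it in each array to the left, and the NF-kappaB list is the reverse.

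Interferon response genes had mostly higher values in the high-globin arrays. Of 60 measured, 51 had higher values, 16 did not overlap, all with higher values, and 6 of these were past 2-fold. The median difference was 0.33, with 0.26 in knockout, 0.32 in wild type and 0.30 within the wild-type arrays with Y-linked signal and no Xist. The list mean was 6.80 in KO2, 6.96 in KO5, 6.99 in WT2 and 6.92 in WT6, against 6.53, 6.54, 6.66, 6.52 and 6.43 in KO3, KO4, WT3, WT4 and WT5. Every high-globin array thus lay above each low-globin array, with KO2 and WT3 nearest to each other.

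Ifi203, a member of the p200 family of nuclear DNA-binding proteins, was at 9.89, 9.35, 9.58 and 9.52 in KO2, KO5, WT2 and WT6, and at 8.53, 8.52, 8.09, 7.59 and 7.95 in KO3, KO4, WT3, WT4 and WT5. Its difference was 1.41, and that of Ifi44, an interferon-induced gene, was 1.33. Irgm1, an immunity-related GTPase, differed by 1.19, Trim30a, a ubiquitin ligase family member, by 1.02 and Gbp7, a guanylate-binding protein, by 1.02. The RNA sensors Ifih1 (MDA5) and Ddx58 (RIG-I) differed by 0.83 and 0.72. Ly6a, also on this list, was given above.

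Not every strongly inducible gene had that sign. Isg15, the ubiquitin-like modifier, differed by -0.06, with its highest value of 7.48 in KO3, and 7 of 9 arrays had Ifit1, at 0.52, below their negative-control median. The MHC class II list had 7 of 9 members with higher values and a median of 0.60, with 0.32 without KO5 and 0.37 without WT6. H2-Aa was at 6.17 in KO2, 7.82 in KO5, 6.68 in WT2 and 7.87 in WT6, against 5.74 to 6.40, so its sets overlapped, and H2-Ab1 was the member without overlap, at 0.85. Within the wild-type arrays with Y-linked signal and no Xist the median of the MHC class II genes was 0.09.

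RefSeq promoter windows on build GRCm38.p6, from 250 bases before to 50 bases after each start, were searched on both strands for the core of the interferon-stimulated response element, GAAA and again GAAA after any 2 bases, overlapping matches included. It was present for 3.99% of 27025 genes, for 21 of the 41 interferon response genes that had a window, and for 9 of the 11 that had one among the 16 without overlap. The 30 bases around the first match are printed for these 9, on the gene's strand, with matches in capitals. They are shown because these are the members whose arrays separated.
Ifi203, chr1:173942508-173942537, minus strand: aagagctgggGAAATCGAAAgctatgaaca
Irgm1, chr11:48871431-48871460, minus strand: cctgtttcaaGAAATAGAAACCGAAActga
Irgm2, chr11:58214903-58214932, plus strand: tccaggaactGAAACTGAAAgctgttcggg
Trim30a, chr7:104465210-104465239, minus strand: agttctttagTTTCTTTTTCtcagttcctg
Trim21, chr7:102565450-102565479, minus strand: cctctgagagGAAACTGAAAGTGAAAtttg
Gbp7, chr3:142530273-142530302, plus strand: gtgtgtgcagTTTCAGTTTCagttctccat
Ifih1, chr2:62646206-62646235, minus strand: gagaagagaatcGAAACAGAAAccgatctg
Ddx58, chr4:40239804-40239833, minus strand: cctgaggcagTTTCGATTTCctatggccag
Ifit1, chr19:34640775-34640804, plus strand: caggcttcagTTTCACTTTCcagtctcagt
In Ifit1, Gbp7, Ddx58 and Trim30a the match reads on the opposite strand, so its letters appear as their reverse complement. Irgm1 and Trim21 hold 2 overlapping matches each. The windows of Ifi44 and Herc6 held no match, which says only that these letters were not in that window. A match is a description of the sequence and does not show that a factor binds there.

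**Figure D5:**
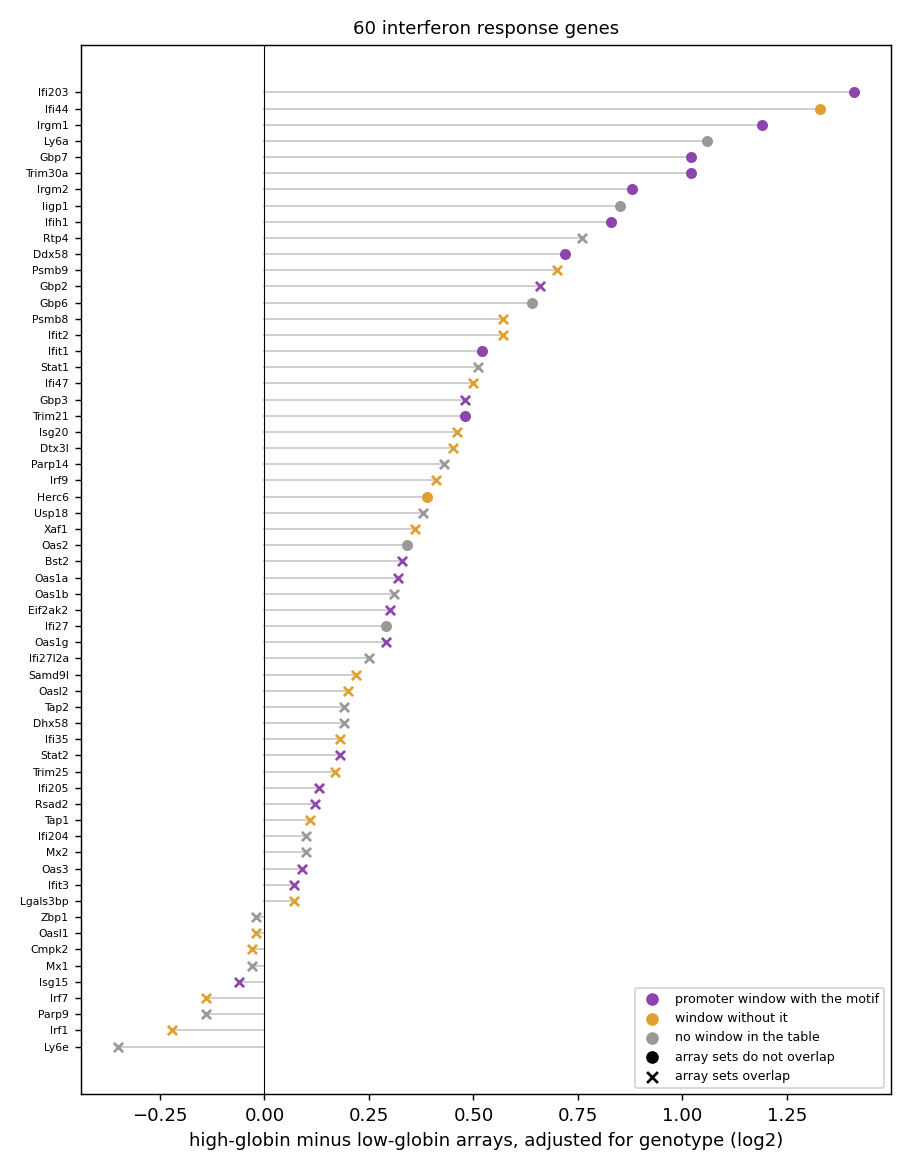
Each line is 1 of the 60 interferon response genes, with the genotype-adjusted difference between the array sets (log2) on the horizontal axis, where filled circles are genes whose sets do not overlap and crosses those that overlap. Colour shows whether the RefSeq promoter window holds the response element, and 51 of the 60 genes lie to the right of 0.

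NF-kappaB feedback and target genes had the opposite sign. The list of 26 genes was put together after values were seen; 20 had lower values, 5 did not overlap, all with lower values, and 4 of these were past 2-fold, with a median difference of -0.18, or -0.10 without KO2 and -0.11 without KO3. Nfkbia, the inhibitor that NF-kappaB itself induces, was at 6.69 in KO2, 7.61 in KO5, 6.85 in WT2 and 7.69 in WT6, against 8.64, 8.17, 7.72, 8.90 and 8.17 in KO3, KO4, WT3, WT4 and WT5. WT6 and WT3 lay close to each other, and the difference of -1.11 was -1.46 within the wild-type arrays with Y-linked signal and no Xist. Tnfaip3, the A20 feedback inhibitor, differed by -1.32 and Rel, an NF-kappaB subunit, by -0.57.

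Cd69, an early activation antigen, was at 7.66, 8.02, 8.60 and 7.71 in KO2, KO5, WT2 and WT6, and at 9.69, 10.13, 9.73, 9.36 and 8.92 in KO3, KO4, WT3, WT4 and WT5. Its difference of -1.58 was -2.07 in knockout and -0.94 within those 3 wild-type arrays. Cxcl2, a neutrophil-attracting chemokine, differed by -1.44, with -1.87 in knockout and -0.63 within them. Ccl3, a chemokine on the same list, had the opposite sign, 0.88 with overlap, and Il1b and Tnf differed by -0.20 and -0.17 with overlap.

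The NF-kappaB half-sites, GGGA and after any 2 bases TTCC, were searched in the same windows on both strands, with overlapping matches included, and were present for 1.63% of all genes and for 5 of 20 list members with a window. Of the 5 genes without overlap, Nfkbia and Cxcl2 held a match and are printed with it in capitals.
Nfkbia, chr12:55492657-55492686, minus strand: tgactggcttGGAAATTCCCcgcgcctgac
Cxcl2, chr5:90903792-90903821, plus strand: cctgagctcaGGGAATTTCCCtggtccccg
In Nfkbia the match lies on the opposite strand, and in Cxcl2 matches on the 2 strands overlap. Tnfaip3 and Rel held none, and for Cd69 no window was used here.

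Immediate early genes also lay mostly on the lower side, with 26 of 30 lower and a median of -0.19, or -0.12 in knockout arrays alone. Nr4a1, an orphan nuclear receptor, was at 6.54 to 7.25 against 7.42 to 8.01, a difference of -0.72. Egr1, a zinc-finger factor, differed by -0.63, Atf3, a stress-induced factor, by -0.68 and Ier2 by -0.76, each with overlap. KO5 was the exception among the high-globin arrays, with a list mean of 7.80 against 7.55 to 7.57 in the other 3, within the range of 7.71 to 8.04 in the low-globin arrays. Klf9, a glucocorticoid-inducible Krüppel-like factor, differed by -1.03 without overlap.

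Cdkn1a, the p21 cell-cycle inhibitor, was at 6.03 in KO2, 7.59 in KO5, 6.56 in WT2 and 7.45 in WT6, against 7.76 to 8.17, a difference of -0.97. Ccng1, cyclin G1, another p53 target, had the opposite sign, with 8.36 to 8.87 against 7.62 to 7.89. Over the 30 apoptosis and p53 target genes 4 did not overlap with higher and 2 with lower values, and the median was -0.04. The median of 40 mitosis genes was 0.01, made of -0.28 in knockout and 0.23 in wild type, and this difference between genotypes was not tested. Of 40 DNA replication genes 33 had higher values, with a median of 0.17. This median was 0.06 in knockout arrays alone, 0.09 after quantile normalization and 0.11 without WT2. Of these genes only Pcna, the polymerase clamp, at 0.33, and Chaf1b, a histone chaperone, at 0.62, did not overlap.

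Heat shock and unfolded protein genes had 22 of 29 members with higher values and a median of 0.15, which was 0.23 in wild-type arrays alone, 0.23 without KO3 and 0.10 without WT6. Dnaja1, a co-chaperone of Hsp70, was at 11.10 to 11.47 against 10.39 to 10.67, while its other clusters gave -0.26 and 0.08. Hspa1a, the inducible Hsp70, stood apart in 1 array, at 9.80 in KO2 and between 6.85 and 7.03 in the other 8. Its further clusters differed by 1.17 and 1.06 without overlap, with 2.18 and 1.72 in knockout but 0.33 and 0.51 in wild type. In the ribosome biogenesis list 28 of 40 had higher values, with a median of 0.14, or 0.08 in knockout arrays alone and after quantile normalization. Gar1, a protein of the H/ACA snoRNA particle, was at 8.99 to 9.19 against 8.02 to 8.82, and Nop10, from the same particle, had the opposite sign, with 9.47 to 10.44 against 10.62 to 11.29. Of 76 cytosolic ribosomal protein genes 9 did not overlap with higher and 9 with lower values: Rpl19 differed by 0.53 and Rps27 by -0.57. Oxidative phosphorylation genes had a median of 0.04, and Ndufa9, a complex I subunit, differed by 1.15. Stromal and endothelial genes had 0 of 24 without overlap and a median of 0.00.

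Small RNAs made up 13 of the 103 clusters with higher values and 8 of the 39 with lower values. These groups were formed by symbol after values were seen. Of 114 small nucleolar RNA clusters, which guide the modification of ribosomal RNA and are mostly cut from introns of host genes, 13 did not overlap, all with higher values (11.4% against 3.12% of all clusters), while the median of the group was -0.06. Snora3 and Snord14d each enter the 13 with a pair of clusters of near-identical values. The Snord115 and Snord116 clusters, many with the same values, lay below the negative-control medians in every array and weigh on the group median. Snord22 was at 9.58, 9.29, 9.21 and 9.54 in KO2, KO5, WT2 and WT6, and at 7.74, 7.82, 7.29, 8.19 and 7.82 in KO3, KO4, WT3, WT4 and WT5. Snord47, carried in an intron of Gas5, differed by 1.16. Of the 4 clusters of Gas5 itself, the brightest had means of 12.92 and 12.89 in the high-globin and low-globin sets and overlapped. The other 3 did not overlap, with means of 11.81 against 11.49, 11.13 against 9.99 and 9.85 against 8.53. Both Snora3 clusters differed by about the same amount, 2.12 and 2.10, with WT5 lowest at 5.74 and 5.84.

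Among 343 microRNA clusters 3 did not overlap with higher values, 0.875% against 3.12% of all clusters. Another 6 did not overlap with lower values, where the share of all clusters was 1.73%. The cluster of the Mir103-2 hairpin had 8.43 in KO2, 7.91 in KO5, 7.77 in WT2 and 7.34 in WT6, against 6.52, 5.02, 4.40, 5.85 and 4.93 in KO3, KO4, WT3, WT4 and WT5. The sets did not overlap, but KO4, WT3 and WT5 lay below their negative-control medians, so the difference of 2.45 is measured in part from background. Its mature 3′ arm is printed from RefSeq with the seed, bases 2 to 8, in capitals.
mmu-miR-103-3p, chr2:131288103-131288125, plus strand, GRCm38.p6: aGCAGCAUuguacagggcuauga
The cluster of Mir103-1, a further gene of the family, was at 3.98 to 4.21 against 3.59 to 4.25, below the negative-control medians in all 9 arrays. That of Mir107, from the same family, was at 5.68 to 6.84 against 5.56 to 6.62, with overlap. The array reads the hairpin region in total RNA, so a precursor or host transcript and the mature microRNA cannot be told apart.

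The U2 and U3 small RNAs had the opposite sign. Of 12 clusters 8 did not overlap and were lower by more than 2-fold, but these are near-identical copies, and 4 of the 7 U2 clusters had the same values. The U2 clusters were lowest in KO2, at 6.00 to 6.54, and highest in WT4, at 10.39 to 10.95. The U3 cluster Rnu3a was at 7.64 to 9.26 against 9.59 to 10.66, and 4 further U3 clusters, all with the same values, overlapped.

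The other named genes with the largest differences belonged to no single list. Nynrin, a gene with a predicted nuclease domain, was at 5.78 in KO2, 7.92 in KO5, 9.86 in WT2 and 7.08 in WT6 and between 5.33 and 5.66 in the low-globin set. The low-globin values lay at the level of the negative-control medians, which were 5.29 to 5.62 in those arrays. Its difference of 2.28 was 1.49 without WT2, and its other 2 clusters gave 0.11 and 0.29. Exosc3, a subunit of the RNA exosome, differed by 1.75, Phc3, a Polycomb protein, by 1.74 and Uprt, named for uracil phosphoribosyltransferase, by 1.34, while a further cluster of each gave 0.02, 0.04 and 0.27. Mien1 differed by 1.53, Rexo2, an oligoribonuclease, by 1.34, and the zinc-finger genes Zfp87 and Zfp51 by 1.38 and 1.37. Psmd10, an assembly chaperone of the proteasome, differed by 1.41, with 0.54 in knockout and 2.13 in wild type. Psmd10 and Uprt are X-linked, and over 930 X-linked clusters the median was -0.02. Of these, 34 did not overlap with higher values, 3.66% against 3.12% of all clusters. Another 13 did not overlap with lower values, where the share of all clusters was 1.73%.

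On the lower side, Apoe, apolipoprotein E, was at 8.34 to 8.84 against 9.30 to 9.99. Ubl5, a ubiquitin-like splicing protein, had narrow sets, at 10.27 ± 0.06 (SD, n = 4) and 11.27 ± 0.13 (SD, n = 5). Tmbim6, an inhibitor of cell death in the endoplasmic reticulum, was at 7.68 to 8.52 against 8.92 to 9.45. Rmnd5a, a ubiquitin ligase subunit, differed by -1.01 and Kpna1, a nuclear import receptor, by -1.04. Purb, a single-stranded nucleic acid binding protein, differed by -1.07, while its other cluster gave -0.08.

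The genes in the title of the study did not separate the sets. Klf5 differed by -0.09, Rab5a by -0.10, Rab5b by 0.43, Rab5c by -0.26, Itgb1 by -0.09 and Itgb2 by 0.07, each with overlap. Knockout minus wild type, Klf5 was -0.06 in the high-globin set and -0.30 in the low-globin set. Rab5a was -0.24 and -0.14, Rab5b -0.42 and -0.30, Rab5c 0.04 and 0.20, and Itgb1 0.06 and 0.19 in the same order. Itgb2 was 0.17 in the high-globin set and -0.06 in the low-globin set, the only one of the 6 whose sign differed. With 2 arrays per genotype in the high-globin set and 2 against 3 in the low-globin set, these differences between sets were not tested.

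The 2 arrays normalized apart, KO1 and WT1, had high beta-globin signals as well, with 11.03 and 11.08 in the cluster that chose the sets, against medians over all clusters of 6.43 and 6.40. After each array was centred on its median, KO1 lay nearer the mean of the high-globin set in 97 of the 103 clusters with higher values (94.2%) and in 34 of the 39 with lower values (87.2%). WT1 did so in 96 (93.2%) and 35 (89.7%). Over all clusters the shares were 63.5% for KO1 and 63.8% for WT1. The 103 and 39 clusters were picked for large separation, so these shares are no matched background. Centring on the median need not align the scales of separate normalizations. Before centring, the oxidative phosphorylation list mean was 10.42 in KO1 and 10.38 in WT1, against 9.28 to 9.53 in the other arrays. The part of this scale in the shares was not tested. Vpreb1 was at 10.80 in KO1 and 11.94 in WT1 and Dntt at 9.97 and 10.32, while Car1 was at 8.15 in KO1 and above the high-globin range in WT1. Both arrays also carried Xist, at 11.07 and 11.14, together with Ddx3y, a Y-linked gene, at 8.74 and 8.75.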

How the data were processed

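The authors deposited log2 RMA signals, gene-level and with default settings per the file headers, made with Affymetrix Expression Console per the submitters' processing notes, with no version in the sources used here. The 9-array table held 35556 transcript clusters and controls. Leaving out 6612 control entries and 5 beta-globin clusters gave 28939. Columns were tied to replicate numbers through identical values in the deposited table of all 11 arrays, and 0 columns of sample values stayed unmapped. Symbols were updated through RefSeq accessions, where 22169 clusters matched, and a gene with several clusters is given by the one of highest mean.

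Differences are coefficients of the array set with genotype as covariate (limma 3.58.1, lmFit, R 4.3.3), checked on simulated data and given without a p-value, because the same arrays chose the sets. The labels do not state that arrays are separate animals, and the spread may be technical. There is no read depth in array data, and precision is limited by the number of arrays. Counts ask for a difference of at least 1 on the log2 scale and no overlap, or no overlap alone.

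Named were 15 genes per direction of largest difference without overlap, with 1 symbol and a higher-set mean above the median of all clusters, and passing over predicted genes, clones, olfactory receptors, small RNAs, histones and antigen receptor segments. To these came up to 4 members per list of largest absolute difference and the globin, study and sex-linked genes. Other members were named after their values were seen, where their sets did not overlap or where they define a cell type. The sets, lists and rules were chosen with earlier results of these data known, and the NF-kappaB and early lymphoid lists and the groups by symbol after values were seen. The 13 mitochondrially encoded genes matched 0 clusters and were not used. Promoter windows and microRNA sequences are from RefSeq, GRCm38.p6. Alternatives covered 2 normalizations, the deposited table, the covariate, each genotype alone, the selector, a filter on dim clusters, other sizes, overlap, sex-linked signal and each array left out. Figures were drawn with matplotlib 3.10.9. Results of some genes are not reported here.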

Additional observations from a re-analysis of the deposited data

Results flagged for a closer look

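Within a set, a value stood apart where its gap to the next array was large for the set's range by Dixon's criterion. Of 126 sets screened 5 did so, where about 1 in 20, or 6, would be expected by chance. Rmnd5a was at 9.232 in WT4, above the other low-globin arrays at 8.99 to 9.04. Kit was at 9.998 in KO2, below the other high-globin arrays at 10.21 to 10.22. The mean of the plasma cell genes was 5.609 in WT2, against 5.62 in each of the other high-globin arrays. The mean of the neutrophil and granule genes was 6.512 in KO3, above the other low-globin arrays at 6.01 to 6.12. The mean of the immediate early and AP-1 genes was 7.798 in KO5, above the other high-globin arrays at 7.55 to 7.57.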

How the results depend on the processing

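The 30 genes named for the largest differences were chosen without overlap, so fits on fewer arrays or 1 genotype had to keep their sign. They also kept it under the other alternatives that gave them a value. Medians of 9 lists did not: T and NK, plasma cell, neutrophil, stromal, mitosis, ribosomal protein, oxidative phosphorylation, glycolysis and apoptosis genes, each lying between -0.28 and 0.23. Taking the higher and the lower clusters in this order, the counts reported were 103 and 39, and 156 and 183 in knockout arrays alone, 321 and 75 in wild-type arrays alone, and 461 and 213 within the 3 wild-type arrays with Y-linked signal and no Xist, where fewer arrays make overlap rarer. A difference of 1.5-fold gave 401 and 110, one of 4-fold 10 and 1, and no rule on overlap 159 and 75. Leaving out each array in turn gave 104 to 138 and 37 to 58. Quantile normalization gave 86 and 53 and median centring 106 and 39. Alpha-globin as selector gave the same sets, but there the 4 arrays of highest signal were taken, so the size of the high set was fixed. No paired analysis was possible because the sets share only replicate number 5 and the differences come from no test.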
